A study of Homo sapiens with 54 samples.

Results

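The caveolae genes described here are 7 of the 27978 genes in the count table, chosen by name: the caveolins CAV1 and CAV2, the cavins CAVIN1, CAVIN2 and CAVIN3, and the membrane-shaping proteins EHD2 and PACSIN2. All 7 were found under these symbols, which replace the older names PTRF, SDPR and PRKCDBP for the 3 cavins. They were chosen after earlier results of the same libraries had been seen, so their levels and ratios to untreated cells are given as a description with no test. In the comparisons where a test is given, between mixtures and the whole injection and between untreated groups, the libraries are the same ones that entered those ratios, and the tests are no independent support for the choice of genes. All 7 genes passed the filter on low counts in every comparison, with at least 86 reads in each library.

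Caveolae are flask-shaped pits of the plasma membrane that flatten when the membrane is stretched, and they take part in endocytosis, lipid handling and signalling. Caveolin oligomers insert into the inner leaflet, and the cavins form the outer coat that keeps the pit curved. EHD2, an ATPase, sits at the neck and holds the pit at the surface, and PACSIN2, an F-BAR protein, bends and tubulates the membrane there. Caveolae and CAV1 are abundant in mesenchymal-like breast cancer cells and sparse in luminal ones.

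RNA came from MDA-MB-231, an established human breast cancer line of the triple-negative, mesenchymal-like type, so every value here is from a single line in culture. Compound Kushen Injection (CKI), a plant extract mixture given at 2 mg/ml, was compared with untreated (UT) cells and with 8 mixtures lacking or holding named CKI components at amounts matching the same dose. In batch 1, sampled at 24 h and at 48 h, the mixtures were N_2 (CKI without oxymatrine, Omt, and oxysophocarpine, Ospc), N_3 (CKI without macrozamin, Mac, and both of those alkaloids), OO (Omt and Ospc alone) and MOO (Mac, Omt and Ospc alone). In batch 2, sampled at 48 h only, they were N_Mac, N_Nme, N_Omt and N_Tri, each CKI without 1 component: Mac, N-methylcytisine (Nme), Omt or trifolirhizin (Tri). Each of the 18 groups had 3 libraries, which the submitters call biological replicates, and UT and CKI libraries are in each of the 3 sets. Treated and untreated cells were compared only within a time and batch.

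Total counts per library were between 17673537 and 26138924. At 24 h, CKI replicate 1, N_3 replicate 2 and OO replicate 2 stood apart from the other replicates of their groups (over 2-fold in 241, 516 and 201 of 9783 genes), in the direction in which batch 2 differed from batch 1 (r of 0.745, 0.591 and 0.669 across genes). Ratios and differences of the 7 genes at 24 h that rest on them are given with and without these libraries. Of the libraries kept throughout, N_2 replicate 3 at 24 h differed over 2-fold in 304 genes, OO replicate 1 at 24 h in 161 (r = -0.652), N_3 replicate 1 at 24 h in 86, N_3 replicate 2 at 48 h in 63 and N_2 replicate 2 at 24 h in 57, and every other library in at most 45. VIM, CD44, AXL and KRT18, taken here as genes expressed in this line, were present in every library. Their summed level was 3490.5 to 3725 CPM in untreated and 2049.7 to 2102 CPM in CKI libraries at 24 h. At 48 h it was 3005 to 3027 and 1822 to 1904 CPM in batch 1 and 3360.2 to 3650.0 and 1867 to 1926 CPM in batch 2. The sum hides a split: VIM, KRT18 and AXL were lower in every CKI library at both times, and CD44 was higher in every one. Mean CD44 at 24 h was 592 CPM in CKI and 522 CPM in untreated cells. Of the 4 luminal markers ESR1, PGR and FOXA1 were at 0 in 25, 39 and 5 libraries, and EPCAM was in every library at 6.19 to 27.6 CPM. Of the 9 fibroblast markers COL1A1 (8.87 to 65.2 CPM), COL1A2 (0.663 to 44.6), LUM (0.722 to 6.73) and PDGFRB (2.21 to 16.4) were in every library, and DCN, THY1, FAP, PDGFRA and COL3A1 were at 0 in 38, 24, 12, 4 and 2. At 24 h the summed luminal markers were 15.7 to 18.5 CPM in untreated and 7.47 to 9.26 CPM in CKI cells. In batch 1 at 48 h they were 18.4 to 21.4 and 6.34 to 9.6 CPM. In batch 2 they were 20.9 to 22.8 and 8.72 to 10.1 CPM. This sum lay above untreated cells in every library of N_3 at 24 h, N_2 at 48 h (25.4 to 30.4 CPM) and N_Omt. It overlapped them in N_2 at 24 h and N_3 at 48 h, and lay below in the other mixtures. The summed fibroblast markers at 24 h were 58.3 to 65.8 CPM in untreated and 27.7 to 51.5 CPM in CKI cells. In batch 1 at 48 h the fibroblast sum was 73.4 to 76.1 and 46.02 to 49.9 CPM. In batch 2 the ranges overlapped (33.5 to 43.3 and 39.2 to 40.6 CPM). In N_2 at 24 h the fibroblast sum was at least 67.1 CPM in every library, above untreated cells. Over both batches at 48 h mean COL1A2 (30.2 and 5.85 CPM) and DCN (0.314 and 0.281) were lower in CKI cells. Mean COL1A1 (13.9 and 19.8), COL3A1 (0.208 and 0.921), LUM (1.98 and 4.95) and PDGFRB (9.06 and 11.7) were higher. The part of these marker levels in the results below was not tested.

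Levels are given as CPM, a gene's counts scaled to a common library total, after scaling of the library totals by the TMM method. In untreated cells at 24 h, per kilobase of exon, the order was CAVIN1 (232 CPM per kb), CAVIN3 (217), CAV1 (200.1), EHD2 (101), CAV2 (67.2), PACSIN2 (31.5) and CAVIN2 (12.9). Thus the main cavin, another cavin and the main caveolin stood close together at the top, and CAVIN2, which helps to curve the membrane, was the scarcest transcript in all 18 groups. The same order held in untreated cells of batch 1 at 48 h, and in batch 2 CAV1 (199 CPM per kb) stood above CAVIN1 (188). After CKI the order at 24 h was CAVIN1, EHD2, CAVIN3, CAV1, CAV2, PACSIN2 and CAVIN2, with CAV1 down to 80.6 CPM per kb, and without CKI replicate 1 it was the same order with CAV1 at 85.1 CPM per kb.

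Between 24 and 48 h of untreated culture in batch 1, 2 of the 7 genes passed edgeR's quasi-likelihood test, at an adjusted p under 0.05 (Benjamini-Hochberg, over the whole table). Both were higher at 48 h, where 25.3% of all genes tested were called and 13.2% were called higher. EHD2 rose from 354, 359 and 376 CPM at 24 h to 451, 476 and 511 CPM at 48 h, a log2 difference of 0.40 ± 0.06 (SE, edgeR adjusted p = 6.9e-04), with no overlap between the groups. CAVIN1 rose from 885, 888 and 893 CPM to 962, 1006 and 1035 CPM, a log2 difference of 0.17 ± 0.06 (SE, edgeR adjusted p = 0.035), a call that was lost without any of 4 of the 6 libraries, UT replicates 1 and 2 at 24 h and 2 and 3 at 48 h (edgeR adjusted p of up to 0.13). Without UT replicate 3 at 24 h CAVIN3 passed as well, so that the number of the 7 genes was 1 to 3 with 1 library left out. With all groups in 1 fit neither gene passed, EHD2 having an edgeR adjusted p of 0.054 and CAVIN1 of 0.65, beside 1.62% of all genes. For CAV1 the 95% interval of the log2 difference was -0.20 to 0.04, and for PACSIN2 -0.08 to 0.16.

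Between the untreated cells of the 2 batches at 48 h, 5 of the 7 genes passed the test and all 5 were lower in batch 2, beside 60.1% of all genes called and 27.4% called lower. CAVIN3 fell by 0.67 ± 0.07 (SE) on the log2 scale, from 225, 257 and 276 CPM in batch 1 to 159, 152 and 167 CPM in batch 2 (edgeR adjusted p = 3.7e-06). EHD2 was lower with a log2 difference of -0.65 ± 0.06 (SE, edgeR adjusted p = 6.8e-07), and CAVIN1 with -0.48 ± 0.05 (SE, edgeR adjusted p = 3.3e-06). PACSIN2 differed by -0.24 ± 0.06 (SE, edgeR adjusted p = 0.0017) and CAV2 by -0.15 ± 0.05 (SE, edgeR adjusted p = 0.018), the latter no longer called without any of 3 of the 6 libraries, or when scaled by library totals alone (edgeR adjusted p = 0.054). CAV1 (95% interval -0.06 to 0.19) and CAVIN2 (-0.05 to 0.26) did not pass, and CAVIN2 passed without UT replicate 3 of batch 2. The batches therefore held different baselines for 5 of the 7 genes, and mixtures of batch 1 and batch 2 are not set against each other below.

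Because the genes were chosen on their ratios to untreated cells, the number that pass edgeR's test against untreated cells is given for completeness and nothing is read from it. For CKI it was 4 of 7 at 24 h, all lower, beside 38.4% of all genes called and 19.2% called lower, and 6 of 7 at 48 h with the batch as a term, 1 higher and 5 lower, beside 70.8%. Over the mixtures it was 19 of 28 at 24 h (41.3% of all genes), 23 of 28 at 48 h of batch 1 (68.5%) and 27 of 28 in batch 2 (73.9%). The median log2 ratio of the 7 genes for CKI was -0.37 at 24 h and -0.42 at 48 h, beside 0.01 and -0.01 over all genes tested. Without CKI replicate 1 the number for CKI at 24 h was 5, PACSIN2 being the gene added, while the share over all genes went from 38.4% to 52.9%. For the mixtures at 24 h it was again 19 of 28 without N_3 replicate 2 and OO replicate 2, beside 47.7% of all genes.

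CAV1, the caveolin without which caveolae do not form in non-muscle cells, was below untreated cells in every library of all 15 treated groups. In untreated cells at 24 h it stood at 727, 757 and 720.5 CPM, and after 24 h of CKI at 263, 302 and 323 CPM, a log2 ratio of -1.31 ± 0.10 (SE) and 40.3% of the untreated mean (-1.23 without CKI replicate 1). At 48 h of batch 1 untreated cells held 719, 700.3 and 673 CPM and CKI cells 262, 242 and 246 CPM, and in batch 2 they held 714, 782 and 691 and 212, 223 and 221 CPM. The log2 ratio was -1.48 ± 0.06 (SE) in batch 1 and -1.74 ± 0.05 (SE) in batch 2. In bulk RNA a smaller number of cells that express a gene and less of its RNA in each cell cannot be told apart. For CAV1 and the genes that follow, the share of all genes whose treated libraries lay wholly apart from untreated ones was not counted.

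The mixtures fell into 2 ranges of CAV1 at 48 h of batch 1. OO (223, 214 and 221 CPM) and MOO (293, 278 and 294 CPM), the mixtures of named components alone, kept 31.4% and 41.4% of the untreated mean. N_2 (87.7, 76.6 and 77.5 CPM) and N_3 (81.2, 91.6 and 92.3 CPM), the mixtures without both alkaloids, kept 11.6% and 12.7%. Ordered from high to low the groups were UT, MOO, CKI, OO, N_3 and N_2, and only N_3 and N_2 overlapped. At 24 h the order was UT, OO, MOO, N_2, CKI and N_3. OO and MOO overlapped there, as did N_2 with CKI and CKI with N_3. Without the 3 libraries that stood apart CKI (302 and 323 CPM) no longer overlapped N_3 (181 and 179 CPM), and OO (464 and 466 CPM) lay below MOO (470.4 to 497 CPM). N_3 replicate 2, at 330.0 CPM, lay far above replicates 1 and 3 (181 and 179 CPM), and without it the log2 ratio of N_3 to untreated went from -1.67 to -2.03. In batch 2 no neighbours overlapped: UT, CKI, N_Nme (191, 183 and 182 CPM), N_Tri (167, 169 and 164), N_Mac (145, 138 and 142) and N_Omt (128, 131 and 126).

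CAV2, which needs CAV1 to reach the cell surface, was also below untreated cells in every treated group by its mean, but by less. At 24 h it was 275, 286 and 274 CPM in untreated and 175, 229 and 241 CPM in CKI cells, a log2 ratio of -0.37 ± 0.12 (SE) (-0.25 without CKI replicate 1, the lowest of the 3). At 48 h of batch 1 it was 267, 271 and 267 CPM and 216, 206 and 201 CPM, a log2 ratio of -0.37 ± 0.05 (SE), and in batch 2 the log2 ratio was -0.32 ± 0.04 (SE). Its lowest values were again in N_2 (93.8, 95.4 and 95.7 CPM, 35.4% of untreated) and N_3 (96.2, 101 and 113 CPM, 38.5%) at 48 h. Its highest ratios were in MOO and OO at 24 h (-0.03 and -0.16 on the log2 scale, the latter -0.08 without OO replicate 2), the only treated groups whose libraries overlapped the untreated ones.

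CAV1 and CAVIN2, a caveolin and a cavin whose ratios over the 15 treated groups were nearly parallel, are shown by the 250 bases before their start sites, from RefSeq on GRCh38.p14, so that both promoters can be compared. Capitals mark the TEAD motif GGAATG on either strand, the only searched motif found in either window.
CAV1, chr7:116524759-116525008, plus strand: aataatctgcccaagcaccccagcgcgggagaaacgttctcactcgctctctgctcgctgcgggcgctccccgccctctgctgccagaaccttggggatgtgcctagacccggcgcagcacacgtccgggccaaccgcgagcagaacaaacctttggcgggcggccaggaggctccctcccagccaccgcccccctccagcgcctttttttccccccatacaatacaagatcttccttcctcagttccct
CAVIN2, chr2:191847089-191847338, minus strand: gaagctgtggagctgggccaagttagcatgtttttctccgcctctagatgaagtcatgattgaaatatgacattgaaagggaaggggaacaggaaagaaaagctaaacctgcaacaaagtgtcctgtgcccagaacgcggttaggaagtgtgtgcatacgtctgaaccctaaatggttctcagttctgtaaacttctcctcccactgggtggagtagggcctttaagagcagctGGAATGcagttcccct
The CAV1 window is 63.6% G and C and the CAVIN2 window 48%. RefSeq windows of 5 members were searched on both strands (CAV1, CAV2, CAVIN2, EHD2 and PACSIN2). GGAATG was in that of CAVIN2 alone and is in 12% of 27305 promoters of the same length. The xenobiotic response core GCGTG was in that of PACSIN2 alone and is in 31.9% of promoters. The sterol element TCACNCCAC, the antioxidant element TGACNNNGC, the AP-1 motif TGANTCA and the CArG box were in none of the 5, and are in 0.868%, 11.1%, 6.57% and 1.15% of promoters. A match is a run of letters and says nothing of binding.

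CAVIN2 was low in untreated cells and lower in every library of all 15 treated groups. It stood at 42.4, 39.9 and 42.7 CPM in untreated and 16.4, 16.2 and 15.5 CPM in CKI cells at 24 h, a log2 ratio of -1.38 ± 0.09 (SE) (-1.39 without CKI replicate 1). At 48 h the log2 ratio of CKI to untreated was -1.65 ± 0.07 (SE) in batch 1 and -1.58 ± 0.08 (SE) in batch 2. The lowest values of any gene and group were CAVIN2 in N_3 at 48 h (3.87, 5.32 and 4.71 CPM, 10.1% of untreated), in N_2 at 48 h (6.31, 5.37 and 4.43 CPM) and in N_Omt (7.02, 6.25 and 4.7 CPM). N_3 at 24 h had 1 high library here too, replicate 2 at 21.2 CPM against 10.3 and 10.2 CPM, and the log2 ratio to untreated was -1.58 with it and -2.02 without.

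CAVIN3, which binds protein kinase C delta, stood below untreated cells in every library of all 15 groups as well. At 24 h it was 302, 286 and 239 CPM in untreated and 70.7, 122 and 145 CPM in CKI cells, a log2 ratio of -1.29 ± 0.24 (SE) (-1.05 without CKI replicate 1, the lowest of the 3). At 48 h it went from 225, 257 and 276 to 98.3, 83.7 and 83.2 CPM in batch 1 and from 159, 152 and 167 to 58.5, 59.2 and 54.9 CPM in batch 2, log2 ratios of -1.52 and -1.47. The ratios in the 2 batches were close although the untreated level was lower in batch 2. N_2 at 48 h (40.99, 38.02 and 40.5 CPM, 15.8% of untreated), N_Omt (25.8, 24.2 and 26.2 CPM, 15.9%) and N_Mac (28.8, 26.9 and 30.6 CPM, 18.1%) were the lowest by ratio. In MOO at 24 h the ratio was nearest to untreated, at 237, 214 and 170.2 CPM and a log2 ratio of -0.41 ± 0.12 (SE).

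CAVIN1, the cavin without which caveolae are lost, was below untreated cells by its mean in 14 of the 15 treated groups. The group that departed from this was N_2 at 24 h. In N_2 at 24 h it was 3269, 3297 and 1973 CPM against 885, 888 and 893 CPM in untreated cells, a log2 ratio of 1.68 ± 0.20 (SE) or 3.2-fold. All 3 N_2 libraries lay above every other library of the set, and replicate 3 lay well below the other N_2 replicates. With 1 library left out in turn the log2 ratio ranged from 1.56 to 1.89. The N_2 libraries at 24 h also had the lowest TMM factors of all libraries (0.775 to 0.842). Scaled by library totals alone the CAVIN1 ratio was 2.61-fold. Over all comparisons, that scaling shifted the median log2 difference of all genes by at most 0.341. At 48 h CAVIN1 in N_2 was 925, 737 and 838 CPM against 962, 1006 and 1035 CPM in untreated cells, all 3 below them. CAVIN1 in CKI at 24 h was 665, 877 and 856 CPM, a log2 ratio of -0.15 ± 0.12 (SE) (-0.04 without CKI replicate 1). At 48 h the log2 ratio of CKI to untreated was -0.49 ± 0.06 (SE) in batch 1 and -0.35 ± 0.03 (SE) in batch 2. N_Nme, N_Tri and N_Mac held the lowest CAVIN1, at 300.4, 273 and 285 CPM, 288, 287 and 289 CPM and 312, 308 and 300.3 CPM against 719, 729 and 708 CPM in untreated cells. N_Omt (411, 396 and 406 CPM), the lowest group of batch 2 for CAV1, CAV2, CAVIN2 and CAVIN3, was thus the highest of the 4 single removals for CAVIN1.

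**Figure D1:**
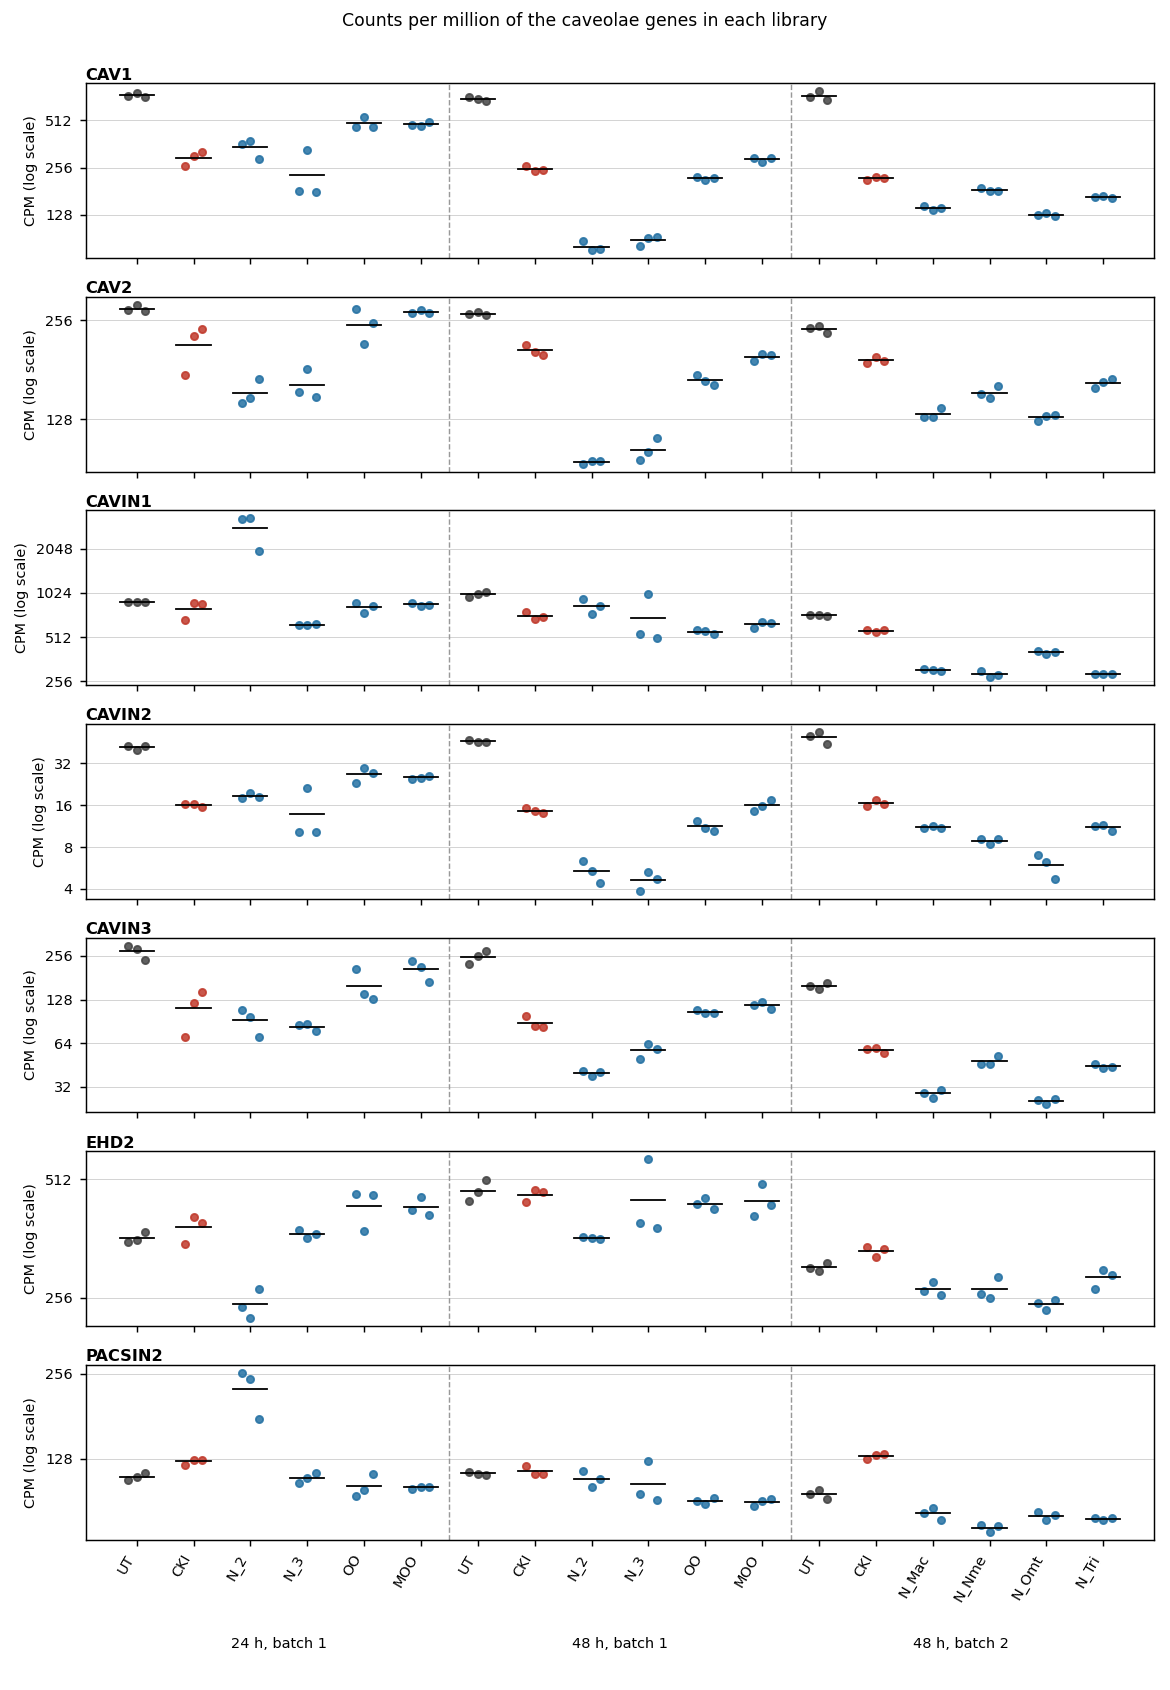
CPM of each caveolae gene (1 panel a gene, log2 axis) in all 54 libraries, by group within the 3 sets of time and batch. Dots are libraries, black bars are means of 3, grey is untreated, red is CKI and blue is a mixture. CAV1, CAVIN2 and CAVIN3 sit below untreated cells in every treated group, and CAVIN1 in N_2 at 24 h sits above all other groups.

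EHD2 and PACSIN2, which act at the neck and in shaping the membrane, stayed closer to untreated levels. EHD2 was 354, 359 and 376 CPM in untreated and 351, 411 and 396 CPM in CKI cells at 24 h, a log2 ratio of 0.09 ± 0.09 (SE) with overlapping libraries. Without CKI replicate 1, the lowest, the ratio was 0.15 and both CKI libraries lay above untreated cells. At 48 h the log2 ratio was -0.03 ± 0.06 (SE) in batch 1, with overlap, and 0.14 ± 0.04 (SE) in batch 2, where CKI (344, 326 and 340.0 CPM) lay above untreated cells (304, 299.8 and 313 CPM) in every library. Over all 15 treated groups EHD2 lay above untreated in every library in 3 and below in 5, and overlapped in 7 (4, 5 and 6 without the libraries that stood apart). Its log2 ratios ran from -0.56 in N_2 at 24 h (242, 227 and 269 CPM) to 0.27 in OO at 24 h (471, 379 and 466 CPM, 0.37 without replicate 2).

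PACSIN2 in CKI was 122, 127 and 127 CPM at 24 h against 108, 111 and 114 CPM in untreated cells, a log2 ratio of 0.18 ± 0.07 (SE) (0.20 without CKI replicate 1). At 48 h the log2 ratio was 0.03 ± 0.06 (SE) in batch 1, with overlapping libraries, and 0.45 ± 0.04 (SE) in batch 2, where CKI held 128, 132 and 134 CPM and untreated cells 96.5, 99.8 and 92.5 CPM. The difference between the batches was not tested. PACSIN2 was also the other gene with a high ratio in N_2 at 24 h, 258, 245 and 177 CPM and 2.04-fold (1.67-fold by library totals alone). The single-removal mixtures all held less PACSIN2 than untreated cells in every library, from a log2 ratio of -0.39 in N_Nme to -0.23 in N_Mac.

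**Figure D2:**
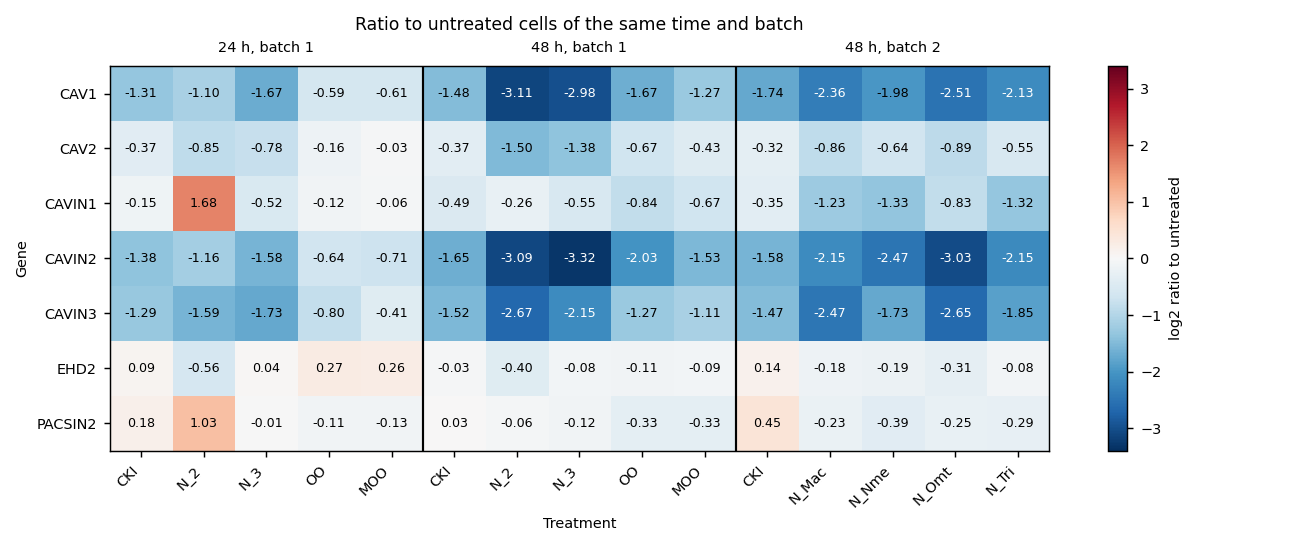
Log2 ratio of each treated group to untreated cells of the same time and batch, for the 7 genes (vertical axis) and 15 treated groups (horizontal axis), each from 3 libraries against 3. CAV1, CAVIN2 and CAVIN3 are below 0 throughout and lowest in N_2 or N_3 at 48 h, and CAVIN1 and PACSIN2 are above 0 in N_2 at 24 h.

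Mixtures were set against the whole injection in 12 comparisons, each within a time and batch, which asks how each gene differs between them. The 18 groups hold no CKI put back together from its parts. A missing component and the way a mixture was made therefore cannot be told apart. With 7 genes these comparisons gave 84 differences, and p-values were adjusted over all genes of each comparison. Each difference is that of 2 ratios to untreated cells seen before the genes were chosen, so its p-value is no independent support. In batch 2, where each mixture lacks 1 component, all 28 differences passed the test and all were lower than CKI, beside 75.7% of all genes called in either direction and 37.7% called lower. Every mixture library also lay below every CKI library for these genes, and the share of all genes that did so was not counted.

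Removal of Omt went with the largest differences from CKI for 5 of the 7 genes in batch 2. CAVIN2 in N_Omt, at 7.02, 6.25 and 4.7 CPM against 15.7, 17.3 and 16.4 CPM in CKI, differed by a log2 value of -1.45 ± 0.10 (SE, edgeR adjusted p = 2.9e-19). The difference was -1.18 ± 0.05 (SE, edgeR adjusted p = 1.3e-26) for CAVIN3, -0.77 ± 0.04 (SE, edgeR adjusted p = 1.1e-25) for CAV1, -0.58 ± 0.04 (SE, edgeR adjusted p = 3.6e-20) for CAV2, where the N_Omt and N_Mac libraries overlapped, and -0.45 ± 0.04 (SE, edgeR adjusted p = 8.5e-17) for EHD2. For CAVIN1 the order was different: N_Nme (-0.98 ± 0.05 SE), N_Tri (-0.97 ± 0.03 SE) and N_Mac (-0.88 ± 0.04 SE) lay further below CKI than N_Omt (-0.49 ± 0.03 SE), with 95% intervals of the first 3 that do not reach that of N_Omt (-0.55 to -0.42). PACSIN2 differences were between -0.67 and -0.84 in all 4 mixtures. The smallest differences were CAV1 in N_Nme at -0.24 ± 0.05 (SE, edgeR adjusted p = 2.7e-04), CAV2 in N_Tri at -0.23 ± 0.03 (SE, edgeR adjusted p = 5.3e-08) and EHD2 in N_Tri at -0.22 ± 0.03 (SE, edgeR adjusted p = 1.5e-07). These mixtures were compared with CKI and not with each other, so the differences between them carry no test.

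At 48 h of batch 1, 20 of 28 differences from CKI passed the test, 4 higher and 16 lower, beside 65.2% of all genes. N_2 and N_3, which lack both alkaloids, were far below CKI for the coat genes. CAV1 differed by -1.63 ± 0.06 (SE, edgeR adjusted p = 6.9e-17) in N_2 and -1.50 ± 0.09 (SE, edgeR adjusted p = 1.1e-06) in N_3, CAV2 by -1.13 ± 0.05 (SE) in N_2, with a 95% interval of -1.21 to -0.80 in N_3, and CAVIN2 by -1.44 ± 0.12 (SE) in N_2 and -1.66 ± 0.14 (SE) in N_3. CAVIN1 in N_2 was instead higher than in CKI, at 0.23 ± 0.07 (SE, edgeR adjusted p = 0.0039), although its libraries (925, 737 and 838 CPM) overlapped those of CKI (756, 677 and 699 CPM) and the call was lost with all groups in 1 fit (edgeR adjusted p = 0.20). In N_3 it did not pass, with a 95% interval of -0.57 to 0.47 on the log2 scale, and replicate 2 (1015 CPM) lay far above replicates 1 and 3 (535 and 509 CPM). The 3 genes CAVIN1, EHD2 and PACSIN2 did pass as lower in N_3 without that library, which takes the number to 23 of 28, beside 67.2% of all genes. PACSIN2 passed there with library totals alone as well (edgeR adjusted p = 0.028). PACSIN2 in N_2 did not pass either (95% interval -0.21 to 0.03), and passed without N_2 replicate 1.

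OO and MOO, the mixtures of 2 and 3 named components, lay nearer to CKI than N_2 and N_3 for CAV1, CAV2, CAVIN2 and CAVIN3. For PACSIN2 (116 CPM in CKI) they lay further away, at 90.9 and 90.4 CPM beside 109 in N_2 and 105 in N_3. For CAVIN1 the mean of OO (559 CPM) was the furthest from CKI (711 CPM). CAV1 was lower than CKI in OO, at -0.19 ± 0.04 (SE, edgeR adjusted p = 7.2e-04), and higher in MOO, at 0.21 ± 0.05 (SE, edgeR adjusted p = 0.0019). CAVIN3 was higher than CKI in both, at 0.25 ± 0.06 (SE, edgeR adjusted p = 8.3e-04) in OO and 0.41 ± 0.06 (SE, edgeR adjusted p = 1.9e-05) in MOO. CAVIN1 and PACSIN2 were lower in both, CAVIN1 at -0.35 ± 0.05 (SE) in OO and -0.18 ± 0.06 (SE) in MOO (edgeR adjusted p = 2.4e-06 and 0.0094), the latter lost without MOO replicate 1. With all groups in 1 fit neither CAVIN1 call held (edgeR adjusted p = 0.074 in OO and 0.38 in MOO). PACSIN2 differed by -0.35 ± 0.05 (SE) and -0.36 ± 0.05 (SE). EHD2 passed in neither, with 95% intervals of -0.17 to 0.01 and -0.18 to 0.07, but passed in OO without CKI replicate 1 and in MOO without MOO replicate 2.

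**Figure D3:**
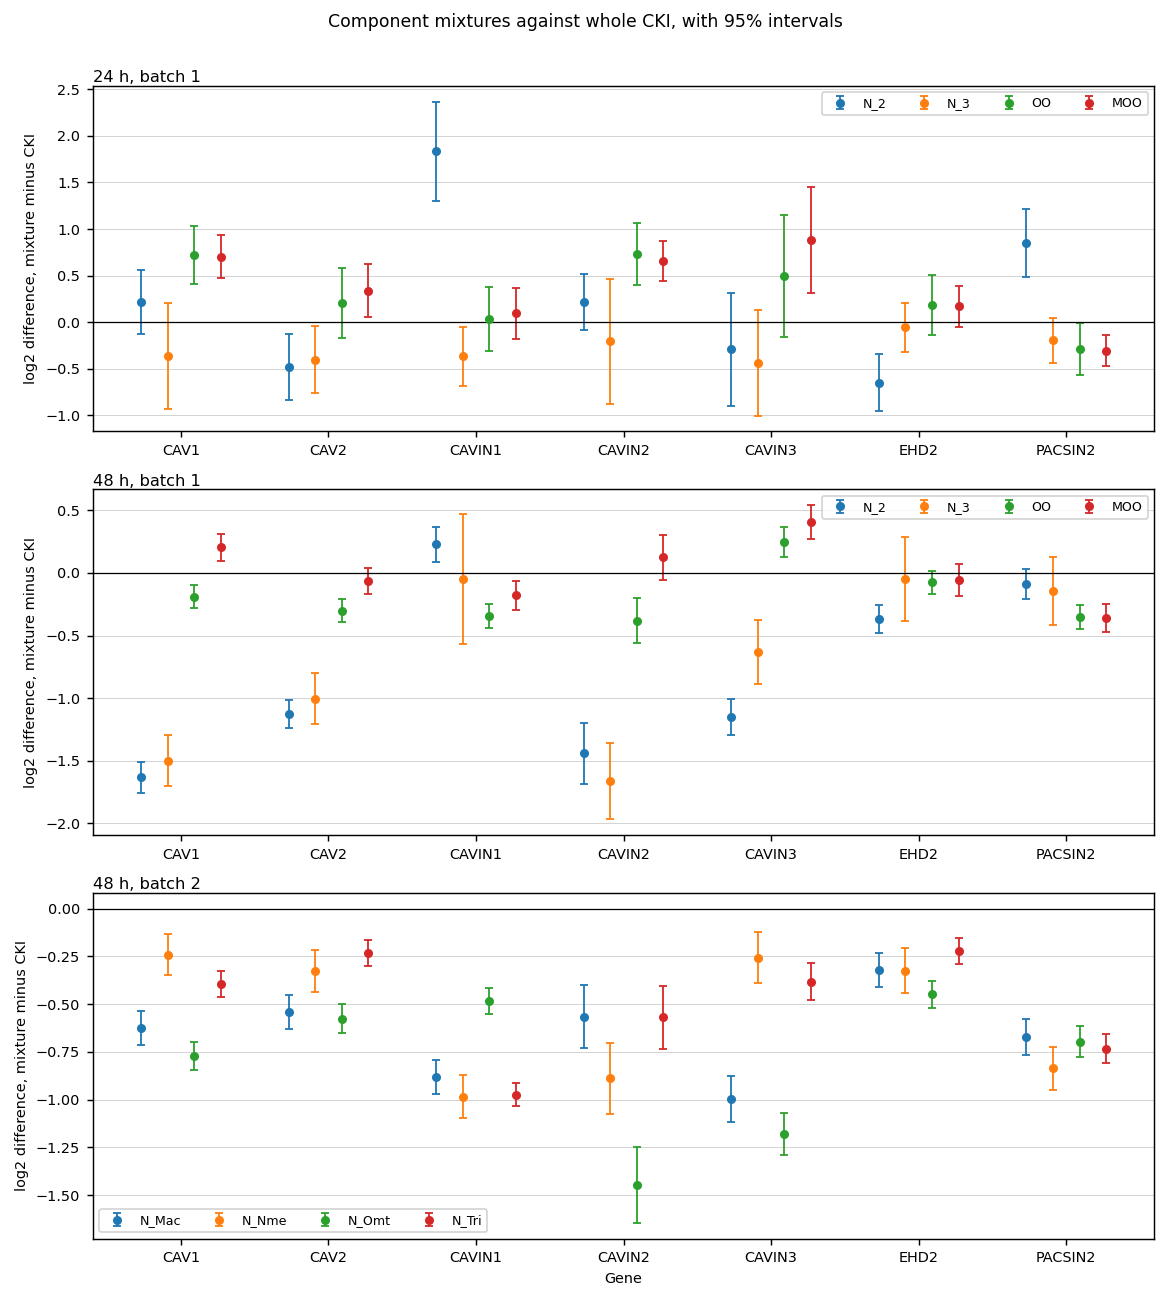
Log2 difference of each mixture from CKI (mixture minus CKI, bars are 95% intervals, 3 libraries against 3) for the 7 genes, in panels for 24 h, 48 h batch 1 and 48 h batch 2. All batch 2 points are below 0, and in batch 1 at 48 h N_2 and N_3 are lowest for CAV1, CAV2 and CAVIN2.

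At 24 h, 10 of 28 differences from CKI passed, 7 higher and 3 lower, beside 23.8% of all genes. The number was 5 without CKI replicate 2 (13% of all genes), 6 without CKI replicate 3 (17.2%), 13 without N_3 replicate 2 (28.5%) and 15 without the 3 libraries that stood apart (37.2%). CAVIN1 in N_2 was higher than in CKI by a log2 difference of 1.83 ± 0.24 (SE, edgeR adjusted p = 3.7e-04) and PACSIN2 by 0.85 ± 0.16 (SE, edgeR adjusted p = 0.0024), while EHD2 was lower at -0.65 ± 0.13 (SE, edgeR adjusted p = 0.0035) and CAV2 at -0.48 ± 0.16 (SE, edgeR adjusted p = 0.029), the CAV2 call being lost without any of 4 of the 6 libraries. Without CKI replicate 1 these differences were 1.72, 0.83, -0.71 and -0.61, and all 4 passed. CAVIN3 in N_2 did not pass, and passed as lower when scaled by library totals alone (edgeR adjusted p = 0.046). MOO was above CKI for CAV1 at 0.70 ± 0.10 (SE, edgeR adjusted p = 0.0051), CAVIN2 at 0.66 ± 0.09 (SE, edgeR adjusted p = 0.0051) and CAVIN3 at 0.88 ± 0.25 (SE, edgeR adjusted p = 0.049) and below it for PACSIN2 at -0.31 ± 0.07 (SE, edgeR adjusted p = 0.029). The CAVIN3 call was lost without any of 4 of the 6 libraries and the PACSIN2 call without any of 5, with no filter beyond 1 count and with all groups in 1 fit. Without CKI replicate 1 the MOO differences were 0.63 for CAV1, 0.68 for CAVIN2, 0.64 for CAVIN3 and -0.33 for PACSIN2, and all 4 passed. OO was above CKI for CAV1 at 0.72 ± 0.13 (SE, edgeR adjusted p = 0.042) and CAVIN2 at 0.73 ± 0.15 (SE, edgeR adjusted p = 0.047), and both calls were lost without any of 5 of the 6 libraries, that of CAVIN2 also with library totals alone (edgeR adjusted p = 0.077).

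N_3 and CKI at 24 h each held 1 library that stood apart, and the result turned on them. With all libraries edgeR called 0 of 7 genes beside 23% of all genes (2 had an unadjusted p under 0.05, and DESeq2 called 0). CAV2 passed as lower with all groups in 1 fit (edgeR adjusted p = 0.020) and CAVIN1 with library totals alone (edgeR adjusted p = 0.046). Without CKI replicate 1 and N_3 replicate 2, 6 of 7 were lower in N_3, beside 62.6% of all genes. CAV1 then differed from CKI by -0.79 on the log2 scale (edgeR adjusted p = 3.3e-09) and EHD2, the gene that did not pass, by -0.10. In OO against CKI the number went the other way, from 2 to 0, without CKI replicate 1 and OO replicate 2 (2.3% of all genes were called with all libraries and 2.05% without these), with CAV1 at 0.57 (edgeR adjusted p = 0.084) and CAVIN2 at 0.66 (edgeR adjusted p = 0.089). In MOO without CKI replicate 1 it went from 4 to 5, with CAV2 added at 0.21, while the share over all genes went from 15.8% to 28.7%.

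The presence of Mac can be compared in 2 pairs of mixtures at each time in batch 1. MOO holds Mac beside OO, and N_2 holds Mac beside N_3. These 4 comparisons of 7 genes gave 28 differences, of which 9 passed the test, 7 higher and 2 lower with Mac, beside 21.6% of all genes. At 48 h MOO was above OO for 5 genes, beside 9.78% of all genes called and 6.33% called higher. CAV1 was 293, 278 and 294 CPM in MOO and 223, 214 and 221 CPM in OO, a log2 difference of 0.40 ± 0.04 (SE, edgeR adjusted p = 1.8e-06), and CAVIN2 differed by 0.51 ± 0.09 (SE, edgeR adjusted p = 6.8e-04) and CAV2 by 0.24 ± 0.04 (SE, edgeR adjusted p = 9.6e-04), with no overlap in any of these 3. CAVIN1 at 0.17 ± 0.04 (SE, edgeR adjusted p = 0.016) and CAVIN3 at 0.16 ± 0.05 (SE, edgeR adjusted p = 0.036) passed by less, and were lost without any of 3 and of 4 of the 6 libraries. Both were also lost with all groups in 1 fit (edgeR adjusted p = 0.77 and 0.47), and CAVIN3 with library totals alone. EHD2 and PACSIN2 did not pass, with 95% intervals of -0.09 to 0.13 and -0.10 to 0.09.

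At 24 h edgeR called 0 of 7 genes between MOO and OO, with 0 at an unadjusted p under 0.05 and 0 by DESeq2, beside 0% of all genes tested by edgeR (578 at an unadjusted p under 0.05) and 0 genes by DESeq2. Without OO replicate 1 CAVIN3 passed, at 0.63 (edgeR adjusted p = 0.030), beside 14.9% of all genes, and without OO replicate 2 again 0 of 7 passed, with CAV1 at 0.05 and CAVIN3 at 0.30. With all libraries the 95% interval for CAV1 was -0.26 to 0.23 and for CAVIN3, the widest, -0.07 to 0.85, so differences of the size seen for CAV1 at 48 h were outside the interval for CAV1. N_2 against N_3 gave 3 calls at 24 h, beside 36.6% of all genes: CAVIN1 at 2.20 ± 0.22 (SE, edgeR adjusted p = 0.0012), PACSIN2 at 1.05 ± 0.17 (SE, edgeR adjusted p = 0.0035) and EHD2 at -0.59 ± 0.13 (SE, edgeR adjusted p = 0.0094), the EHD2 call being lost without N_2 replicate 1. Without N_3 replicate 2 there were 5, beside 40.7% of all genes, with CAV1 at 0.93 (all libraries 0.58), CAVIN2 at 0.86 (all libraries 0.42), CAVIN1 at 2.19, PACSIN2 at 1.04 and EHD2 at -0.61. CAV1 passed with all groups in 1 fit too (edgeR adjusted p = 0.016). At 48 h only CAVIN3 passed, at -0.52 ± 0.11 (SE, edgeR adjusted p = 0.0034), beside 39.1% of all genes. Without N_3 replicate 2 there were 3, with CAVIN1 at 0.68 (edgeR adjusted p = 3.8e-07) and PACSIN2 at 0.21 (edgeR adjusted p = 0.030) added as higher, beside 51.5% of all genes. EHD2 passed as lower without N_3 replicate 3 (edgeR adjusted p = 0.044) and with all groups in 1 fit (edgeR adjusted p = 0.016). For CAV1 the interval there was -0.35 to 0.08, so a difference as large as that between MOO and OO was outside it.

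A list of 15 partner genes of caveolae (other cavins, EHD and PACSIN family members, dynamin, filamin and kinases that act on caveolin) was set beside the 7 for CKI against untreated cells, with all members compared and 13 tested. CAV3, the muscle caveolin, and PACSIN1, a neuronal family member, had too few counts. At 24 h 3 of the 13 passed, all lower (PACSIN3, with ABL1 and ROR1 named after their values were seen), beside 38.4% of all genes called and 19.2% called lower, with a median log2 difference of 0.01 beside 0.01 over all genes. At 48 h 8 passed, 1 higher and 7 lower, beside 70.8% of all genes, with a median of -0.20 beside -0.01. EHD3, a recycling endosome relative of EHD2, fell by 0.98 ± 0.08 (SE) on the log2 scale (edgeR adjusted p = 2.2e-09). SRC, which phosphorylates caveolin-1, fell by 0.47 ± 0.05 (edgeR adjusted p = 1.5e-07), PACSIN3 fell by 0.44 ± 0.05 (edgeR adjusted p = 6.9e-07) and FLNA, an actin crosslinker that binds caveolin-1, fell by 0.37 ± 0.04 (edgeR adjusted p = 3.7e-08). The count at 24 h was 0 without untreated replicate 2 (22.4% of all genes), 1 without untreated replicate 1 or 3 or CKI replicate 2 or 3 (22.7% to 37% of all genes), and 5 without CKI replicate 1 (52.9% of all genes).

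Coat genes of the clathrin route, with the flotillins of another route, moved both ways, as did all genes tested. Of all genes 19.2% were called higher and 19.2% lower at 24 h, and 34.6% and 36.1% at 48 h. Of 12 genes tested 4 passed at 24 h, 1 higher (PICALM, a clathrin assembly protein named after its values were seen) and 3 lower (median log2 difference -0.01), beside 38.4% of all genes. At 48 h 8 passed, 4 higher and 4 lower (median 0.04), beside 70.8% of all genes. Without CKI replicate 1 the number at 24 h was 8, beside 52.9% of all genes. At 48 h AP2B1, the beta subunit of the clathrin adaptor, was lower at -0.56 ± 0.04 (SE, edgeR adjusted p = 4.3e-10), FLOT2, a flotillin, at -0.45 ± 0.04 (SE, edgeR adjusted p = 7.0e-09) and CLTA, a clathrin light chain, at -0.30 ± 0.04 (SE, edgeR adjusted p = 3.5e-06), while AP2A1, another adaptor subunit, was higher at 0.26 ± 0.04 (SE, edgeR adjusted p = 1.9e-05). CLTC, the clathrin heavy chain, did not pass (95% interval -0.05 to 0.12), and it was named after its values were seen. In batch 2 alone CLTC passed as higher, at 0.10 ± 0.03 (SE, edgeR adjusted p = 0.019), and in batch 1 alone it was -0.02 with overlapping libraries. FLOT1, also named after its values were seen, did not pass over both batches. It passed as lower in batch 1 alone (-0.35) and as higher in batch 2 alone (0.18).

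**Figure D4:**
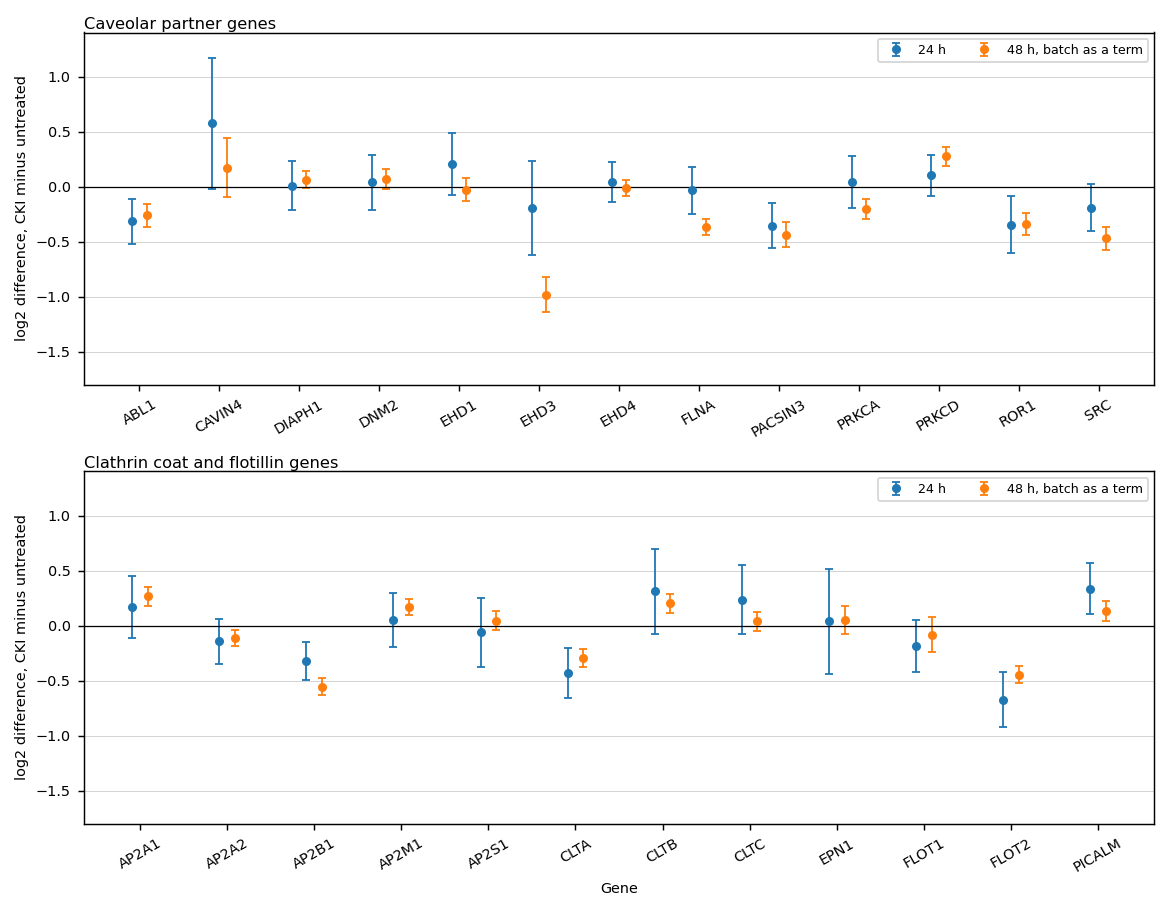
Log2 difference of CKI from untreated cells at 24 h (3 libraries against 3) and at 48 h (6 against 6, batch as a term), with 95% intervals, for the 13 partner genes and the 12 clathrin coat and flotillin genes tested. EHD3 lies lowest of the partner genes at 48 h and FLOT2 lowest of the clathrin and flotillin genes at 24 h.

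The genes whose log2 ratios to untreated cells over the 15 treated groups were most like those of CAV1, out of 9782 genes averaging 10 CPM or more, were PRR5L (r = 0.963), ARHGDIB (r = 0.962), CAVIN2 (r = 0.962), MARVELD1 (r = 0.955) and CRIM1 (r = 0.954), by Pearson correlation. CAVIN2 was thus the third gene in this order. Of the other members CAVIN3 had r = 0.907, CAV2 0.863, EHD2 0.530, CAVIN1 0.444 and PACSIN2 0.273. For CAVIN1 the leading genes were ITPK1 (r = 0.978), CABLES1 (r = 0.975), SRRT (r = 0.968), ZBED1 (r = 0.963) and SLC9A3R1 (r = 0.959). Groups of 1 set share their untreated libraries, for CAVIN1 N_2 at 24 h lies far from the other groups, and these values describe the 15 groups only. Without the 3 libraries that stood apart the 5 genes for CAV1 were the same, with CAVIN2 the second in order (r = 0.962), and those for CAVIN1 were SRRT, ZBED1, ITPK1, BCR and SLC9A3R1, with r from 0.965 to 0.959.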

How the data were processed

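RNA-seq was performed by the submitters on poly(A) RNA of MDA-MB-231 cells with strand-specific paired-end libraries. The authors deposited raw read counts per gene, not normalized, for 54 libraries. Per the labels' processing notes, which give neither role nor order, the tools were FastQC 0.11.4, Trim Galore 0.3.7, STAR 2.5.3a, Subread 1.5.2 with featureCounts, and edgeR 3.22.3, with hg19. Whether counting used strand is not given in the sources used here, so reads of a gene and of an antisense partner may not be told apart. No count column was without a sample (0). Total counts were 17673537 to 26138924 per library, and the limit they set is counting error only.

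From these counts, libraries were scaled by TMM over all 54, genes were filtered with filterByExpr, and groups were compared within a time and batch by the quasi-likelihood test of edgeR 4.0.16 (R 4.3.3), with Benjamini-Hochberg adjustment over all genes tested and a threshold of 0.05. CKI at 48 h was compared over both batches with the batch as a term. SE was the log2 difference divided by the square root of F, and intervals are at 95%. DESeq2 1.42.0 was an alternative, with other scalings, filters, a fit of all groups, a replicate block and each library left out. Leaving out the 3 libraries that stood apart was chosen after seeing the data. The scripts were tested on simulated data. The members and lists were chosen with earlier results of these data known. All 7 members are named. Of each other list up to 4 genes with the largest CKI ratio at 48 h and those too low for a test are named, and the 5 genes most like CAV1 and CAVIN1, with any other gene said to be named after its values were seen. Exon lengths are from GENCODE v29 on GRCh38 and promoters from RefSeq, and no coordinates of the files' build are given. No 2 libraries held the same counts. The groups share replicate numbers, but all 3 pairs of equal number deviated together (r over 0.1) in only 1 of 33 comparisons, so the numbers were not taken to pair the libraries.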

Additional observations from a re-analysis of the deposited data

Results flagged for a closer look

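CAVIN1 in N_2 moved in opposite directions at the 2 times. At 24 h the mean of its 3 libraries was 320.3% of that of untreated cells, with every library higher. At 48 h it was 83.24% of the untreated mean, with every library lower. The difference between the times was not tested.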

How the results depend on the processing

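Of 115 counts of called genes recomputed under another scaling, filter, test, fit or set of libraries, 108 stayed within 1.5 times the value given above. With the replicate number as a block, mixtures against CKI at 24 h had 4 calls in place of 10, those left being the 4 of N_2 (edgeR adjusted p in MOO was 0.058 for CAV1 and 0.070 for CAVIN2), untreated cells at 48 against 24 h had 1 in place of 2, and the partner genes at 24 h had 0 in place of 3, and the block moved no other count by over 1.5 times. It called CAV1 between N_2 and N_3 at 24 h (edgeR adjusted p = 0.011). With all groups in 1 fit, untreated cells at 48 against 24 h had 0 and the partner genes at 24 h 1. With library totals alone the partner genes at 24 h had 1, and without the 3 libraries that stood apart 5. The cause was not tested. For CKI against untreated at 48 h, batch 1 alone gave 5 calls and batch 2 alone 7, beside 62.6% and 68.4% of all genes. With 1 library left out at a time, calls ranged from 3 to 5 for CKI against untreated at 24 h and stayed at 6 at 48 h with both batches. For mixtures against untreated they ranged from 14 to 19 at 24 h, 22 to 25 at 48 h of batch 1 and 26 to 27 in batch 2, and for mixtures against CKI from 5 to 13, from 19 to 23 and at 28. The ranges were 7 to 11 for the macrozamin pairs, 1 to 3 for untreated cells at 48 against 24 h, 4 to 5 for the untreated batches, and 0 to 5 and 8 to 9 for the partner genes at 24 and 48 h. Over 224 results of single members, no called direction reversed. Leaving out a library made 66 values fail the threshold and 27 pass it and kept 1293 on their side, and other settings made 32 fail and 23 pass. With 3 libraries a group, the 95% intervals printed above limit what could be seen. Low counts limit CAVIN2 most, with 86 reads in N_3 replicate 1 at 48 h, its lowest library.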
